A study of Mus musculus with 3 samples.

Results

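HSCP-2 is a cluster of 546 bone marrow cells, 256 from a female and 290 from a male library, among 11132 cells of wild-type C57BL/6 mice. The members are every cell that carries the authors' cluster name HSCP-2, and no cell was added or removed. The sources used here do not spell out the letters. Marrow came from crushed hindlimb bones, was enriched for CD117 with magnetic beads, stained with antibodies and sorted. The labels name the cells modified GMP, and GMP commonly means granulocyte-monocyte progenitor. Transcripts and 4 antibody tags (CD117, CD11b, Ly-6C and Ly-6G) were counted in the same cells by CITE-seq, a droplet assay in which antibodies carry DNA barcodes. Each sex gave 1 mRNA library, and 1 antibody library held the tags of female and male cells together. Ages, the number of mice behind a library and the gates of the sort are not stated in the labels.

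Haematopoietic stem and multipotent progenitor cells are rare cells that can give rise to all blood lineages. They are marked by transcription factors such as Hlf, Mecom and Meis1 and by surface proteins such as Sca-1 and EPCR, and many of them divide seldom. As they commit, they lose these genes and gain those of 1 lineage, such as the granule proteases of granulocytes or the globins of red cells. Sca-1-positive cells are by the usual definition no part of the GMP gate.

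HSCP-2 made up 5.90% of the female library (exact binomial 95% interval 5.22% to 6.65%) and 4.27% of the male library (3.80% to 4.78%), and 5.09% of all cells. The female library held 91448433 and the male library 124967351 unique molecular identifiers (UMIs, each counting 1 captured RNA molecule), of which HSCP-2 cells held 2344625 and 2379573. The median HSCP-2 cell held 8298.5 UMIs (female) and 7140.5 UMIs (male), against 17137.5 and 13805 in Multi-Lin, a cluster of 1752 cells. By the mean of the median UMI counts, HSCP-2 was the second lowest of the 17 clusters. When every cell was thinned at random to 4000 UMIs, the median number of genes with a UMI was 1557 and 1569.5 in HSCP-2 and 1508 and 1503 in Multi-Lin, so the lower depth did not come with fewer genes per UMI. The libraries shared 45 cell barcodes. Of the 90 cells with such a barcode, 5 were HSCP-2 cells, and no barcode was HSCP-2 in both libraries. Nothing says that cells of a library are independent samples, so levels are given per library as CPM, the counts of a gene scaled to 1000000 summed UMIs, in female and male pairs, and differences as log2 ratios of CPM + 1 with the SD over the 2 libraries (n = 2).

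The name was first set beside 4 marker genes given for these cells. The clusters were named on these same cells, so the levels describe HSCP-2 and are no independent check of its name. Cd34 (ENSMUSG00000016494) and Cd27 (ENSMUSG00000030336) encode surface proteins of early progenitors, Sox4 (ENSMUSG00000076431) a transcription factor and Adgrg1 (ENSMUSG00000031785) an adhesion receptor of stem and progenitor cells. Sox4 reached 792 and 824 CPM in HSCP-2, against 335 and 395 CPM in Multi-Lin. Adgrg1 reached 342 and 328 CPM in HSCP-2, against 224 and 203 CPM in Multi-Lin. HSCP-2 stood first of the 17 clusters for both genes by the mean of the libraries, with HSCP-1 next for Sox4 (750 and 652 CPM) and Meg next for Adgrg1 (278 and 256 CPM). For Cd34 (357 and 393 CPM) and Cd27 (183 and 179 CPM) HSCP-2 stood second. HSCP-1, a cluster of 24 cells, was above it with 607 and 473 CPM of Cd34 and 295 and 295 CPM of Cd27, and Multi-Lin came next with 291 and 261 CPM of Cd34 and 129 and 130 CPM of Cd27. The log2 ratios of HSCP-2 over Multi-Lin were 1.15 ± 0.13 for Sox4, 0.65 ± 0.06 for Adgrg1, 0.49 ± 0.03 for Cd27 and 0.44 ± 0.21 for Cd34. Only that of Sox4 exceeded 2-fold in both libraries, and with TMM scaling factors, described next, it did not.

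**Figure D1:**
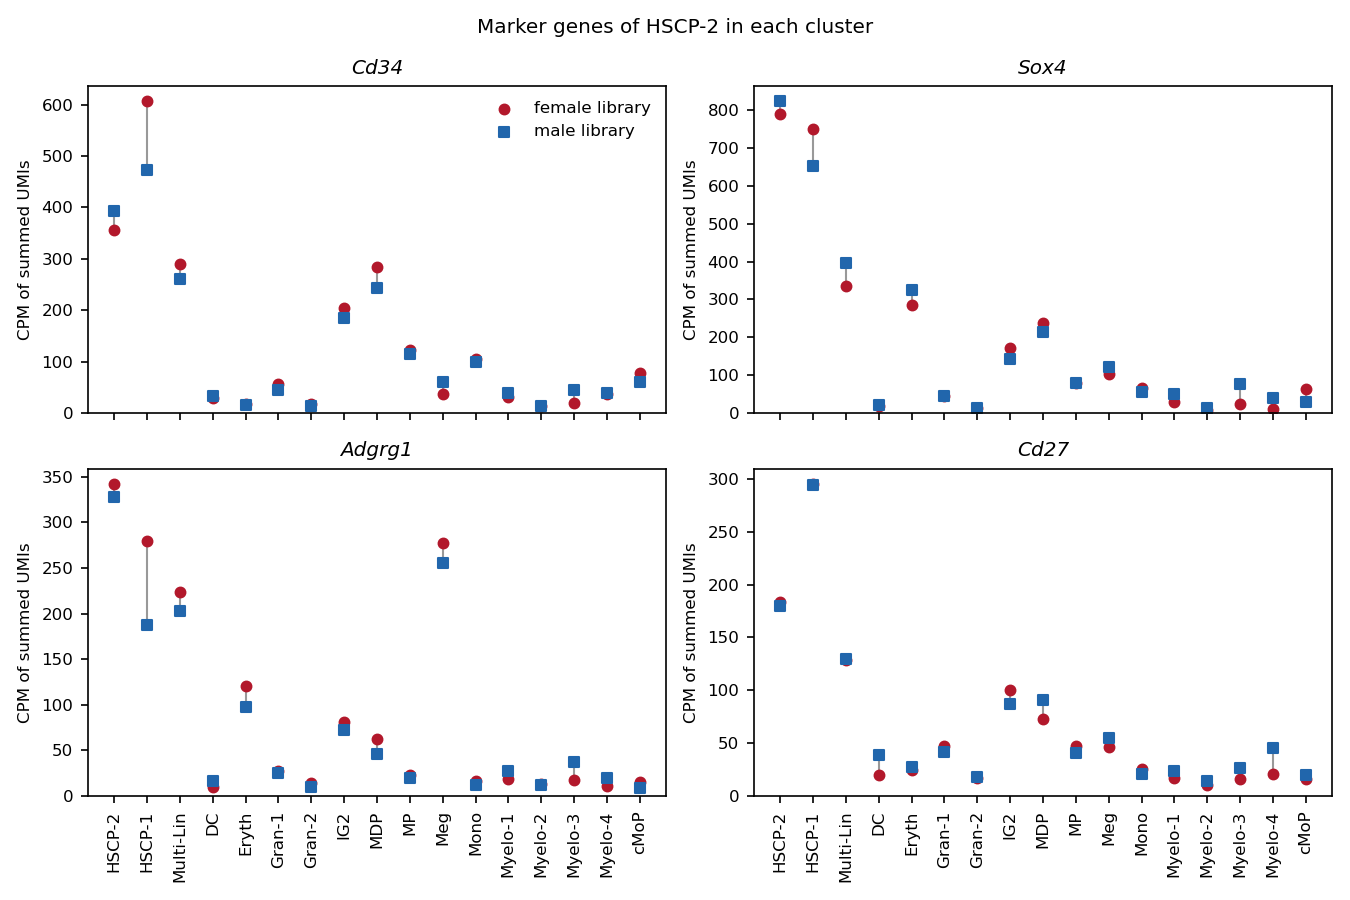
CPM of 4 marker genes in each of the 17 clusters, with 1 point per library joined by a line. HSCP-2 is at the left of each panel, first for Sox4 and Adgrg1 and second after HSCP-1 for Cd34 and Cd27.

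Multi-Lin is used as the main comparator because it was the largest of the clusters that shared these markers. A gene is called here when it differed 2-fold or more in the same direction in both libraries, among genes with a mean of at least 5 CPM over the 4 sums. A gene with little signal in 1 cluster therefore enters only through the cluster where it is high. Such a gene is bound to differ, which limits the list counts below. The authors named the clusters on these same cells, so a call describes the cluster and carries no p-value. Of 8799 genes compared, 362 (4.11%) were called higher and 88 (1.00%) lower in HSCP-2, with 80.4% of the calls higher. The median log2 ratio of all genes was 0.11 for female and 0.13 for male cells. With TMM scaling factors, which move that median to -0.04, the calls were 258 higher and 133 lower, so that 66.0% were higher. These shares are the background for the counts that follow.

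**Figure D2:**
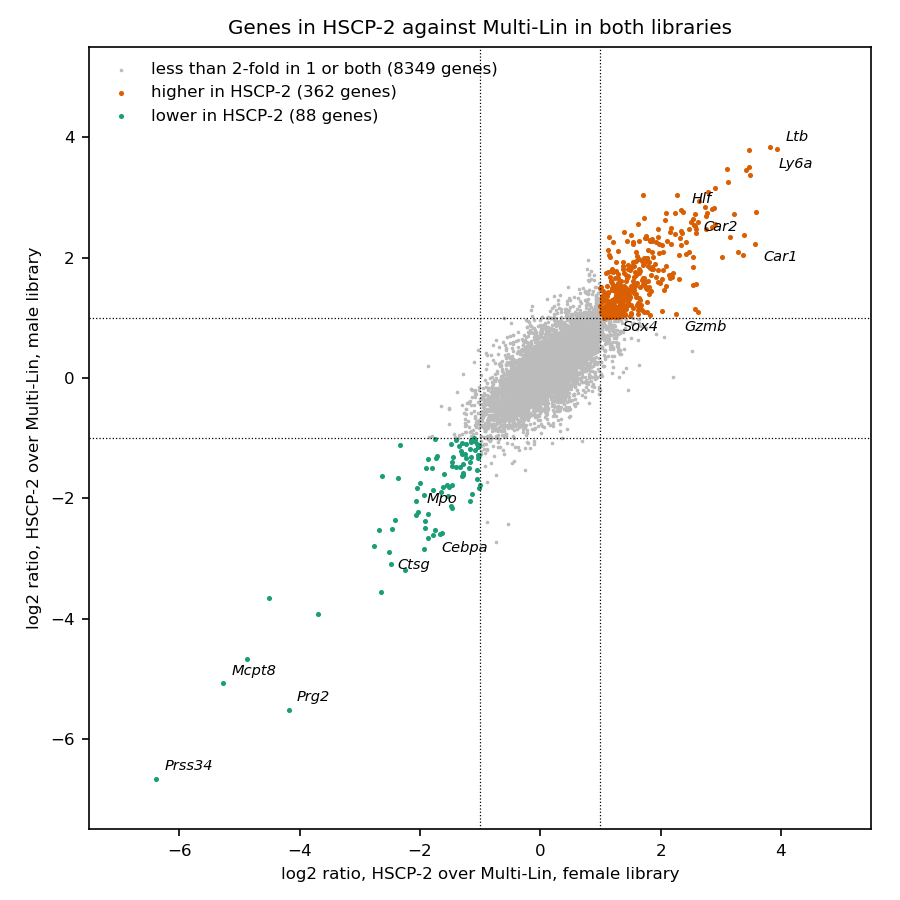
Log2 ratio of HSCP-2 over Multi-Lin in the female library (x axis) and in the male library (y axis) for 8799 genes. Orange points (362 genes) were 2-fold or more higher and green points (88 genes) 2-fold or more lower in both libraries, and dotted lines mark 2-fold.

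Genes of stem cells were the group with the widest differences on the higher side. All 10 measured members of a list of 16 were called higher than in Multi-Lin, with medians of 2.51 and 2.79 on the log2 scale. Members low in Multi-Lin, such as Procr, passed the filter only through their level in HSCP-2. The count and the medians are thus partly set by the filter. Ly6a, which encodes Sca-1, had 80.2 and 103 CPM in HSCP-2, against 4.74 and 6.32 CPM in Multi-Lin (14.2-fold, log2 3.83 ± 0.01). Procr, which encodes EPCR, had 32.4 and 40.8 CPM in HSCP-2, against 2.86 and 3.36 CPM in Multi-Lin (9.11-fold). Hlf, a transcription factor of stem cells, had 91.3 and 91.2 CPM in HSCP-2, against 16.8 and 12.6 CPM in Multi-Lin (5.93-fold, log2 2.57 ± 0.28). For these 3 genes the lower HSCP-2 library was several-fold above the higher Multi-Lin library.

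Mecom, a transcription factor needed for stem cell maintenance, had 41.4 and 47.1 CPM in HSCP-2, against 5.80 and 5.29 CPM in Multi-Lin. Meis1, a partner of HOX proteins, had 124 and 154 CPM in HSCP-2, against 41.2 and 41.9 CPM in Multi-Lin (3.27-fold). The smallest difference of the 10 was that of Angpt1, a ligand of the TIE2 receptor, with 93.0 and 89.5 CPM in HSCP-2, against 43.6 and 42.4 CPM in Multi-Lin (2.1-fold), and its call was lost with TMM factors. The other 6 members, Fgd5, Slamf1, Vwf, Hoxb5, Ctnnal1 and Tek, did not reach 5 CPM. Fgd5 and Hoxb5, whose expression is used to mark long-term stem cells, had 2.13 and 2.52 CPM and 0 and 2.52 CPM in HSCP-2.

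The share of cells with a UMI gave the same order after thinning to 4000 UMIs per cell. Ly6a was seen in 20.3% and 30.3% of HSCP-2 cells, against 1.60% and 2.16% of Multi-Lin cells. Hlf was seen in 27.7% and 31.0% of HSCP-2 cells, against 7.73% and 3.94% of Multi-Lin cells. Neither was seen in the 41 female and 43 male cells of Eryth, an erythroid cluster, where a count of 0 still allows shares of several percent, and Gran-1, a granulocytic cluster of 832 and 1541 cells, gave 0.601% and 0.779% for Ly6a and 1.56% and 0.973% for Hlf.

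Among 31 measured transcription factors of progenitors, 8 were called higher and 2 lower. Mycn, a member of the MYC family, had 33.3 and 46.6 CPM in HSCP-2, against 2.20 and 3.36 CPM in Multi-Lin (10.8-fold, log2 3.43 ± 0.02). Mef2c, a factor of lymphoid and myeloid progenitors, had 197 and 196 CPM in HSCP-2, against 80.1 and 75.6 CPM in Multi-Lin. Hoxa10, Meis1, Bcl11a, Gfi1b and Sox4 were also called higher. The 2 called lower direct myeloid fates. Cebpa, which is required for granulocyte-monocyte progenitors to form, had 47.3 and 22.7 CPM in HSCP-2, against 166 and 144 CPM in Multi-Lin (log2 -2.20 ± 0.59). Irf8, which directs monocyte and dendritic fates, had 25.2 and 24.8 CPM in HSCP-2, against 70.3 and 63.4 CPM in Multi-Lin (log2 -1.38 ± 0.09). Gata2, Spi1 and Gfi1 stayed inside 2-fold. Gfi1, a granulocytic repressor, had 22.6 and 26.1 CPM in HSCP-2 and 25.6 and 24.5 CPM in Multi-Lin, and these values overlapped.

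Of 22 measured receptors and surface genes, 3 were called higher and 0 lower. Flt3, a cytokine receptor of multipotent and lymphoid-primed progenitors, had 70.8 and 64.7 CPM in HSCP-2, against 22.5 and 15.1 CPM in Multi-Lin. Ctla2a, a cathepsin inhibitor, had 879 and 943 CPM in HSCP-2, against 234 and 252 CPM in Multi-Lin (3.74-fold). Kit, which encodes CD117, had 96.0 and 89.1 CPM in HSCP-2, against 54.5 and 47.0 CPM in Multi-Lin, and its difference of 0.86 ± 0.07 on the log2 scale was below the 2-fold line. Outside the lists, the gene with the largest difference was Ltb, which encodes lymphotoxin beta, with 128 and 126 CPM in HSCP-2, against 7.43 and 8.07 CPM in Multi-Lin (14.6-fold, log2 3.87 ± 0.10).

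Some genes of several other lineages were also higher in HSCP-2 than in Multi-Lin, most of all those of the erythroid lineage. By the summed lists HSCP-2 ranked 2 of the 17 clusters for erythroid, 6 for megakaryocyte and 7 for lymphoid genes. The erythroid sum was 1924 and 1927 CPM in HSCP-2, against 6569 and 6157 CPM in Eryth. Car2 alone gave 868 and 1001 CPM of the HSCP-2 sum, and HSCP-1 also held 758 and 661 CPM of Car2. The megakaryocyte sum was 293 and 275 CPM in HSCP-2, against 7307 and 5045 CPM in Meg. Of 9 measured erythroid genes 6 were called higher and 0 lower. Car2, a carbonic anhydrase, had 868 and 1001 CPM in HSCP-2, against 146 and 151 CPM in Multi-Lin (6.25-fold), and 1237 and 1220 CPM in Eryth. Car1, the carbonic anhydrase of early erythroid cells, had 113 and 65.1 CPM in HSCP-2, against 8.57 and 13.2 CPM in Multi-Lin, but 2459 and 2278 CPM in Eryth. Klf1, an erythroid transcription factor, had 29.9 and 28.2 CPM in HSCP-2, against 8.82 and 10.9 CPM in Multi-Lin. The adult beta globin gene Hbb-bt had its highest level in HSCP-2 and not in Eryth, with 174 and 119 CPM in HSCP-2, against 17.7 and 17.3 CPM in Multi-Lin and 5.17 and 13.7 CPM in Eryth. Its alpha globin partner Hba-a1 had 1.71 and 1.26 CPM in HSCP-2.

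Of 7 measured megakaryocyte genes 3 were called higher and 0 lower. F2r, a thrombin receptor, had 33.3 and 24.4 CPM in HSCP-2, against 3.76 and 3.49 CPM in Multi-Lin. Itga2b, the integrin chain CD41, had 47.3 and 35.7 CPM in HSCP-2 and 46.1 and 47.7 CPM in Multi-Lin, without a gap between the clusters. Of 5 measured lymphoid genes 2 were called higher. Dntt, the terminal transferase of early lymphoid cells, had 21.3 and 36.1 CPM in HSCP-2, against 9.15 and 6.32 CPM in Multi-Lin, a call lost with TMM factors, and Lck, a kinase of T cells, had 17.9 and 16.4 CPM in HSCP-2, against 3.27 and 4.52 CPM in Multi-Lin. Of the genes of committed lymphoid cells, Il7r, Rag1, Rag2, Ebf1, Cd79a, Cd3e, Cd3d and Cd3g had 0 UMIs in all 546 cells. A count of 0 in 256 and 290 cells allows a share of cells with a UMI of up to 1.17% and 1.03%. Other lymphoid genes were not at 0. Ighm, described below, had UMIs, and Klrb1c of the T and natural killer cell list had 7.25 and 2.94 CPM. Trbc1, a T cell receptor gene outside the lists, had 4.27 and 10.9 CPM. 1 gene of the T and natural killer cell list could be measured and was not called.

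**Figure D3:**
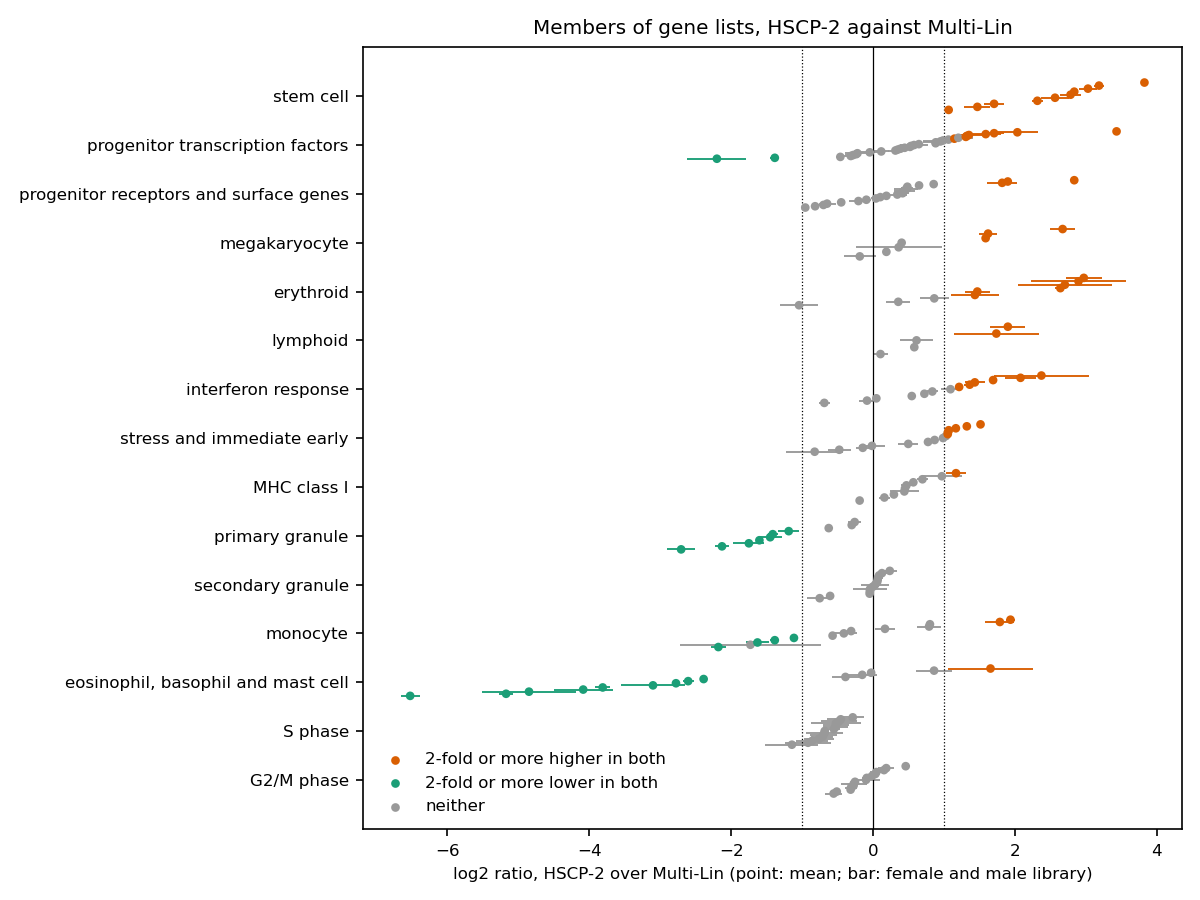
Log2 ratio of HSCP-2 over Multi-Lin for each measured member of 15 gene lists, with the mean of the 2 libraries as a point and the 2 libraries as the ends of a bar. The stem cell list lies wholly beyond 2-fold on the higher side, and the primary granule list and the eosinophil, basophil and mast cell list lie mostly on the lower side.

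Genes of primary granules, the first granules that granulocyte progenitors make, were lower. Of 10 measured members 7 were called lower and 0 higher. Mpo, which encodes myeloperoxidase, had 1068 and 1041 CPM in HSCP-2, against 4380 and 4858 CPM in Multi-Lin (log2 -2.13 ± 0.13). Ctsg, which encodes cathepsin G, had 347 and 281 CPM in HSCP-2, against 1981 and 2102 CPM in Multi-Lin (6.52-fold lower). Elane, which encodes neutrophil elastase, had 740 and 676 CPM in HSCP-2, against 1805 and 2069 CPM in Multi-Lin. Erythroid cells, which do not make these proteins, also held such UMIs, and Eryth had 811 and 827 CPM of Mpo and 723 and 578 CPM of Elane. After thinning, Elane was seen in 96.1% and 94.5% of HSCP-2 cells and in 92.7% and 95.3% of Eryth cells, and Mpo in 98.4% and 97.6% of HSCP-2 cells and in 100% and 97.7% of Eryth cells. Shares this close to 100% cannot separate the clusters, Mpo was somewhat higher in HSCP-2 than in Eryth in both libraries, and the part of free RNA in the HSCP-2 levels was not tested.

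The 13 measured genes of secondary granules, which form later, gave 0 calls in either direction. S100a8 had 2720 and 2120 CPM in HSCP-2, against 2637 and 2017 CPM in Multi-Lin, and was seen in 100% of the thinned cells of both clusters and of Eryth. Of 13 measured monocyte genes 2 were called higher and 4 lower. Klf4, a monocyte transcription factor that stem cells also express, was 3.83-fold higher, and Ctss, a cathepsin, 3.46-fold higher. Ccl9, a chemokine, was 4.53-fold lower and Fcgr3, an Fc receptor, 3.09-fold lower. Of 5 measured dendritic cell genes 2, the class II genes H2-Aa and H2-Eb1, were called higher. Of 2 measured macrophage genes 0 were called.

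Genes of eosinophils, basophils and mast cells showed the largest differences on the lower side, with 9 of 14 measured members called lower and 1 higher. Of the 17 clusters Multi-Lin had the highest sum of this list, at 2599 and 3426 CPM, against 344 and 416 CPM in HSCP-2. HSCP-2 ranked 5 of 17 by the mean of this sum, so these genes were low against Multi-Lin and not against most clusters. Prss34, a basophil protease, had 7.25 and 7.56 CPM in HSCP-2, against 691 and 865 CPM in Multi-Lin (92.1-fold lower, log2 -6.53 ± 0.19). Mcpt8, another basophil protease, had 20.5 and 26.9 CPM in HSCP-2, against 825 and 942 CPM in Multi-Lin (36.1-fold lower). Prg2, a protein of eosinophil granules, was 28.8-fold lower. Cpa3, the carboxypeptidase of mast cells and basophils, had 62.7 and 111 CPM in HSCP-2, against 408 and 647 CPM in Multi-Lin (6.08-fold lower). The 1 called higher was Gzmb, which encodes granzyme B, with 55.9 and 76.9 CPM in HSCP-2, against 10.9 and 36.5 CPM in Multi-Lin. Its call was lost with TMM factors and after thinning, and its UMIs came from few cells, as described below.

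Genes of DNA replication were lower in HSCP-2, by less than 2-fold in the list medians. A single member could pass 2-fold in 1 library. Tyms had 66.5 CPM in female HSCP-2 cells, against 158 CPM in female Multi-Lin cells. In male cells it had 115 CPM in HSCP-2, against 173 CPM in Multi-Lin. The 15 measured S phase genes had medians of -0.87 and -0.47 on the log2 scale, against 0.11 and 0.13 for all genes compared, and 0 were called. Per 4000 UMIs a cell held on average 4.13 and 5.91 UMIs of the S phase list in HSCP-2, against 8.46 and 8.70 in Multi-Lin. At least 10 such UMIs were found in 11.3% and 20.3% of HSCP-2 cells, against 38.2% and 40.4% of Multi-Lin cells. The 15 genes of G2/M phase had medians of -0.27 and -0.03 with 0 calls, and their list gave 5.81 and 7.10 UMIs per 4000 in HSCP-2, against 8.57 and 8.58 in Multi-Lin. The S phase list of the female library was thus further from Multi-Lin than that of the male library. Of 12 cyclins and CDK inhibitors 1 was called, Cdkn1c, which encodes the cell cycle inhibitor p57 known from quiescent stem cells. It had 10.2 and 13 CPM in HSCP-2, against 1.63 and 1.10 CPM in Multi-Lin (5.34-fold).

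Genes that respond to interferon were higher in HSCP-2, with 6 of 13 measured members called higher and 0 lower. Isg15, a ubiquitin-like protein, had 46.1 and 48.7 CPM in HSCP-2, against 13.2 and 14.7 CPM in Multi-Lin (3.24-fold). Irf7, a transcription factor of the pathway, had 25.2 and 21.4 CPM in HSCP-2, against 6.21 and 3.55 CPM in Multi-Lin (4.23-fold). Ifitm1, a membrane protein that limits virus entry, had 1081 and 1339 CPM in HSCP-2, against 463 and 578 CPM in Multi-Lin (2.32-fold, log2 1.22 ± 0.01). Ifit1 (5.19-fold), Gbp2 (2.71-fold) and Ifi203 (2.57-fold) were the other 3. All 6 calls held with TMM factors. Factors of the interferon pathway bind an element with a repeated GAAA core, so the promoters of the members were searched for GAAANNGAAA and for TTTCNNTTTC, its form on the other strand. The window ran from 250 bases before to 50 bases after the gene's start, from RefSeq on GRCm38.p6. Of 32851 promoters 1131 (3.44%) held a match, and 3.76% of the 7029 compared genes with a promoter did. Of the 6 called interferon genes 4 had a match (Isg15, Ifit1, Gbp2 and 1 of the starts of Ifi203), and of 4 uncalled ones with a promoter 4 had a match, so the match did not go with the call. The promoters of 3 called genes are shown because they differ in the number and strand of the matches, with each match in capitals and the strand of the gene 5′ to 3′.
Isg15, chr4:156200769-156201068, minus strand: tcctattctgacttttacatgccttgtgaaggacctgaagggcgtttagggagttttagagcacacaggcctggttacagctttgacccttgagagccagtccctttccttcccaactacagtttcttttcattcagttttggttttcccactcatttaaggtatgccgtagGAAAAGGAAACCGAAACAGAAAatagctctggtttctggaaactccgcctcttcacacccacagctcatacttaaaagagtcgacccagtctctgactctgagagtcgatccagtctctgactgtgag
Ifit1, chr19:34640639-34640938, plus strand: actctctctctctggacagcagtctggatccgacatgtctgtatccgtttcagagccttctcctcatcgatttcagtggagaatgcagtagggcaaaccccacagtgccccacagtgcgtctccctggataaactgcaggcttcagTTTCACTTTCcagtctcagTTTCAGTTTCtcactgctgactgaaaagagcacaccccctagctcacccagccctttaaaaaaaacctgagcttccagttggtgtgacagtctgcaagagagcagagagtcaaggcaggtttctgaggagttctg
Gbp2, chr3:142620413-142620712, plus strand: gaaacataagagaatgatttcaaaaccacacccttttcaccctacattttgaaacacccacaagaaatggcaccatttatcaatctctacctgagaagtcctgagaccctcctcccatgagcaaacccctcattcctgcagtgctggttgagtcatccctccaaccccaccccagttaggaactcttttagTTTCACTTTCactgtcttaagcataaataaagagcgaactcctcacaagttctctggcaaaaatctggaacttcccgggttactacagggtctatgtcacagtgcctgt
Isg15 held 3 overlapping matches that start at -78, -72 and -66 from the gene's start, Ifit1 held 2 at -104 and -85, and Gbp2 held 1 at -59. A match describes the letters only, and binding was not measured.

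Of 15 measured stress and immediate early genes, which respond within minutes to signals or to handling of cells, 6 were called higher and 0 lower, and with TMM factors 2. Jun, a subunit of the AP-1 factor, had 1535 and 1404 CPM in HSCP-2, against 717 and 695 CPM in Multi-Lin (2.08-fold). Nr4a1, an orphan nuclear receptor, was 2.86-fold higher. Of 10 class I MHC genes 1, H2-Q7, was called higher, and this call was lost with TMM or DESeq2 factors, with a pseudocount of 5 CPM and with per-cell means. Among 10 RNA quality transcripts, which include mitochondrial and nuclear RNAs, 0 were called. Their sum was 40098 and 40600 CPM in HSCP-2, against 30497 and 32020 CPM in Multi-Lin, of which the nuclear RNA Malat1 gave 16547 and 17591 CPM in HSCP-2 and 7876 and 8913 CPM in Multi-Lin. The part of RNA quality in the differences above was not tested.

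Set against each of the 14 other clusters of at least 50 cells, HSCP-2 stood highest by 1.5-fold or more in both libraries for 247 of 9047 genes (2.73%), and by 2-fold or more for 102. The next cluster was Multi-Lin for 112 of the 247, Meg for 77 and Eryth for 28, and 145 of the 247 were also called higher than Multi-Lin. Ly6a led the order, 13-fold and 10.4-fold above the next cluster in the female and male library, and Hlf was 5.18-fold and 5.99-fold above. HSCP-1 and DC, too small to enter this comparison, go against this order for Ly6a, with 119.7 and 125 CPM in HSCP-1 and 144 and 11.1 CPM in DC, against 80.2 and 103 CPM in HSCP-2. Hlf in HSCP-1, at 112 and 71.5 CPM, lay on both sides of the 91.3 and 91.2 CPM in HSCP-2. Procr was 8.66-fold and 9.59-fold above its next cluster. Ddx4, a helicase best known from germ cells, had 12.8 and 15.5 CPM in HSCP-2, against 0 and 0.771 CPM in Myelo-3, the next cluster by its mean. Gimap6, a GTPase of lymphocytes and stem cells, had 137 and 174 CPM in HSCP-2, and HSCP-1 had 224 and 107 CPM. With clusters of any size included, 37 genes were left. Against all other cells together, 1143 of 8720 genes (13.1%) were called higher and 295 (3.38%) lower, of which 79.5% higher. With TMM factors the counts were 575 and 620, or 48.1% higher, so the split between the directions rests on the scaling.

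HSCP-1 shares the first part of the name but held only 14 female and 10 male cells, in which 1 UMI equals 7.98 and 8.93 CPM. Of 8927 genes, 401 (4.49%) were called higher and 240 (2.69%) lower in HSCP-2. In 1 library alone between 1032 and 1406 genes passed in a direction, and genes of few UMIs can pass by counting error. In simulated counts false calls arose in this comparison, so the counts here are not read as a result. Among genes with many UMIs, Dntt had 21.3 and 36.1 CPM in HSCP-2, against 798 and 741 CPM in HSCP-1, where these were 100 and 83 UMIs. Ighm, the heavy chain constant gene of IgM, had 52.9 and 45.8 CPM in HSCP-2, against 487 and 518 CPM in HSCP-1. Flt3 had 70.8 and 64.7 CPM in HSCP-2, against 287 and 188 CPM in HSCP-1. These 3 genes of lymphoid-primed progenitors were lower in HSCP-2 in both libraries.

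In the other direction, Apoe, which encodes apolipoprotein E, had 544 and 569 CPM in HSCP-2, against 23.9 and 17.9 CPM in HSCP-1 from 3 and 2 UMIs. Gata2, a factor of stem, erythroid and mast cells, had 185 and 156 CPM in HSCP-2, against 16.0 and 17.9 CPM in HSCP-1 from 2 UMIs each. Cpa3 and Csrp3, a muscle LIM protein gene, had 0 UMIs in HSCP-1, which allows up to 23.9 and 26.8 CPM in each library. Csrp3 had 102 and 88.3 CPM in HSCP-2. Ly6a (119.7 and 125 CPM in HSCP-1), Hlf (112 and 71.5 CPM in HSCP-1) and Car2 (758 and 661 CPM in HSCP-1) were inside 2-fold of HSCP-2. The genes named in these sentences on HSCP-1 were chosen after their values were seen.

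HSCP-2 was not uniform. The Fano factor, the variance of a gene's UMIs over cells divided by their mean, is 1 for counts that vary by sampling alone. It was 1.5 or more in both libraries for 127 of 6137 genes after thinning to 4000 UMIs. Thinning anew with other random draws gave 107 and 125 genes. Gzmb had Fano factors of 10.5 and 9.94 at means of only 0.348 and 0.397 UMIs per cell. Lmo4, a transcriptional adaptor, had 10.6 and 8.38, Hbb-bt 11.7 and 7.25, Ifitm1 9.92 and 14.3, and Car1 4.66 and 5.08. Malat1 had 18.0 and 16.2 at means of 72.5 and 74.6 UMIs per cell. Fano factors depend on the level of a gene, so these values are not ranked against each other.

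Several of these genes went together from cell to cell. Over 256 female and 290 male cells, which share their library's free RNA and preparation, Pearson's r between thinned counts of Gzmb and Lmo4 was 0.59 and 0.68. It was 0.60 and 0.60 for Lmo4 and the galectin gene Lgals1, and 0.61 and 0.54 for Lmo4 and Csrp3. The histone variant gene H2afy went against Apoe, with r of -0.44 and -0.51, and against Car1, with r of -0.36 and -0.39. The mitotic gene Ube2c and the histone gene H2afx gave r of 0.57 and 0.59. Hbb-bt gave weaker values, with r between -0.22 and 0.14 over the genes paired with it.

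The cells were therefore split by the presence of a UMI of 1 gene at a time after thinning, with Hlf, Ly6a, Dntt, Car1, Gzmb and Ube2c as the splitting genes, chosen after their values were seen. Genes that go with a splitting gene are a description of the cluster and carry no test. The cells with a Gzmb UMI were 13 female (5.08%) and 20 male (6.90%) cells, against 0% of Gran-1 female and 0.195% of Gran-1 male cells. Gran-1 ranked only 14 of the clusters for Gzmb. Multi-Lin ranked 2 and held 133 and 566 Gzmb UMIs before thinning, against 131 and 183 in HSCP-2. Gzmb was therefore not particular to HSCP-2. In them Lmo4 had 2874 and 2031 CPM, against 144 and 107 CPM in HSCP-2 cells without a Gzmb UMI. Cpa3 had 536 and 756 CPM in cells with and 45.5 and 71.4 CPM in cells without a Gzmb UMI. Ms4a2, the beta chain of the high-affinity IgE receptor, had 280.1 and 180.1 CPM in cells with and 11.9 and 15.6 CPM in cells without a Gzmb UMI. Itgb7, an integrin chain of mast cell progenitors, had 219 and 209 CPM in cells with and 30.1 and 21.9 CPM in cells without one. All 4 genes were several-fold higher in the cells with a Gzmb UMI in both libraries. Genes of other kinds were higher in the same cells. Trbc1, a T cell receptor constant gene, had 122 and 187 CPM in cells with and 0 and 0 CPM in cells without a Gzmb UMI. The summed primary granule list had 12557 and 11339 CPM in cells with and 7528 and 6972 CPM in cells without one, and the monocyte list 2777 and 2651 CPM in cells with and 1182 and 1112 CPM in cells without. The interferon list summed to 8745 and 7708 CPM in cells with and 3439 and 3926 CPM in cells without, and the stress list to 10560 and 7024 CPM in cells with and 5951 and 4835 CPM in cells without. The RNA quality list summed to 51801 and 48941 CPM in cells with and 39673 and 40083 CPM in cells without a Gzmb UMI, and its part in these differences was not tested. Flt3 had 0 UMIs in the cells with a Gzmb UMI, and Cd34 had 60.9 and 101 CPM in them, against 368 and 411 CPM in the cells without.

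The cells with a Car1 UMI were 39 female (15.2%) and 30 male (10.3%) cells, against 0.361% and 0.584% of Gran-1 cells and 97.6% and 97.7% of Eryth cells. Klf1 had 128 and 152 CPM in cells with and 14.3 and 15.3 CPM in cells without a Car1 UMI. Gata1, the main erythroid transcription factor, had 90.8 and 129.5 CPM in cells with and 35.1 and 26.0 CPM in cells without a Car1 UMI. Apoe had 1322 and 1854 CPM in cells with and 421 and 436 CPM in cells without one. Stem cell genes ran the other way, with Hlf at 6.27 and 4.47 CPM in cells with and 105 and 100.2 CPM in cells without a Car1 UMI. Cells with both a Car1 and a Gzmb UMI numbered 7 female and 8 male cells.

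The cells with an Hlf UMI were 71 female and 90 male cells, those with a Ly6a UMI 52 and 88, and 30 and 37 cells had both. In cells with a Ly6a UMI Ltb had 298 and 236 CPM, against 88.9 and 80.9 CPM in cells without. Procr had 88.0 and 70.0 CPM in cells with and 19.5 and 28.9 CPM in cells without a Ly6a UMI. Hbb-bt had 489 and 222 CPM in cells with and 101 and 77.9 CPM in cells without a Ly6a UMI, while Car1 had 2.26 and 1.46 CPM in cells with and 139 and 90.9 CPM in cells without one. Hbb-bt was thus higher and Car1 lower in the cells with a Ly6a UMI in both libraries, while over all HSCP-2 cells r between Hbb-bt and Car1 was only -0.14 and -0.11. Cells with a Car1 or Gzmb UMI numbered 45 and 42, those with an Hlf or Ly6a UMI 93 and 141, and 2 cells of each library fell in both sets. No UMI of any of these 4 genes or of Dntt was found in 113 female and 97 male cells. A cell without a UMI at this depth may still hold the transcript, so the sets are lower limits.

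The cells with a Dntt UMI were 17 female and 26 male cells, and none of them had a Car1 UMI after thinning. Wfdc17, a small secreted protein gene that was also high in HSCP-1, had 379 and 222 CPM in cells with and 85.9 and 66.0 CPM in cells without a Dntt UMI. Ighm had 135 and 222 CPM in cells with and 47.1 and 28.6 CPM in cells without a Dntt UMI. The 45 female and 56 male cells with a UMI of Ube2c, a ubiquitin-conjugating enzyme of mitosis, held a median of 14853 and 10383.5 UMIs, against 7836 and 6985.5 in the cells without. Ly6a had 51.2 and 58.8 CPM in cells with and 89.8 and 118 CPM in cells without a Ube2c UMI.

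**Figure D4:**
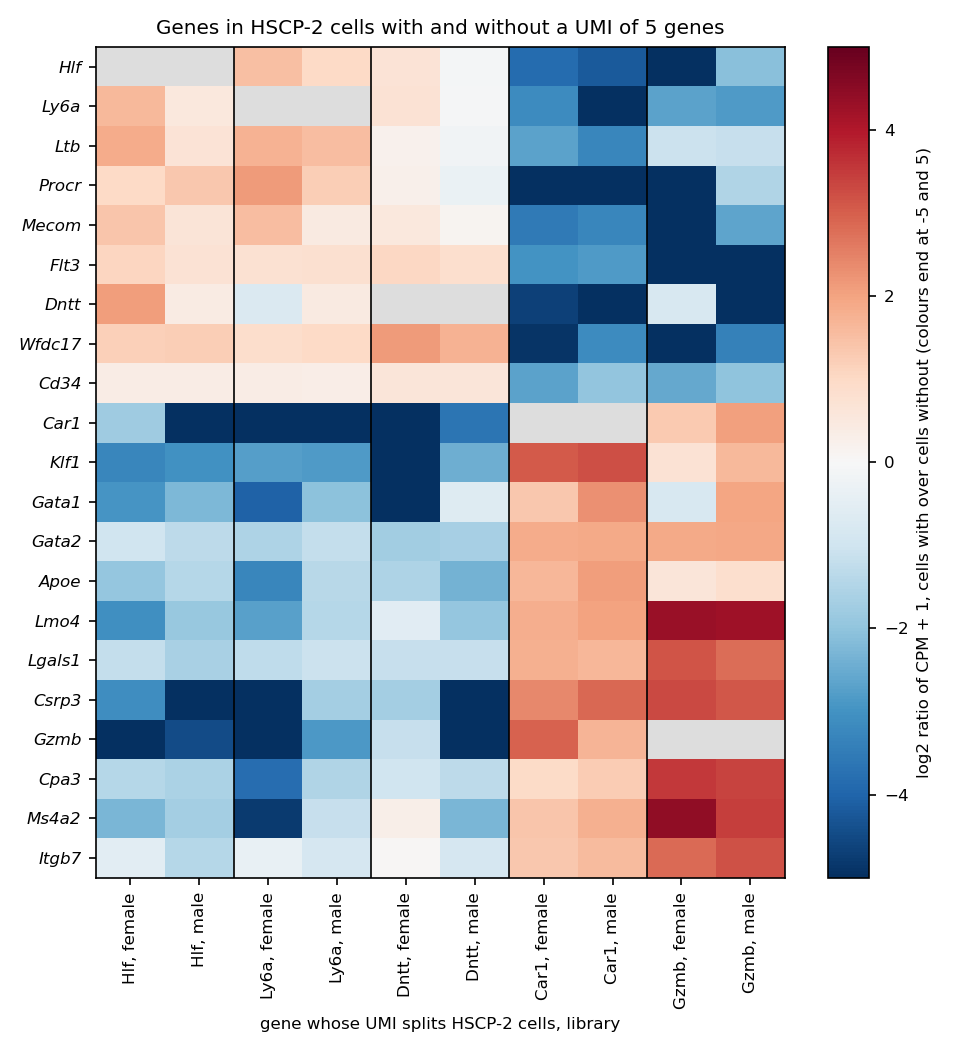
Log2 ratio of genes between HSCP-2 cells with and without a UMI of the gene named below each column, for 5 splitting genes in 2 libraries (grey: the splitting gene itself). The upper rows hold genes of stem cells and also Ltb, Flt3, Dntt, Wfdc17 and Cd34. The stem cell genes are red in the Hlf and Ly6a columns and blue in the Car1 and Gzmb columns. Genes of the erythroid and mast cell lineages (lower rows) are the reverse, apart from Gata1 in the female Gzmb column.

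The antibody tags gave a second readout in the same cells. The authors' sources used here do not say whether tags entered the clustering. The median CD117 count was 369.5 and 263 in HSCP-2 cells, against 357 and 206 in Multi-Lin cells, a ratio of 1.04 and 1.28, and HSCP-2 ranked second and first of the 17 clusters. The median CD11b count, an integrin of myeloid cells, was 202 and 129 in HSCP-2 cells, against 139 and 87 in Multi-Lin cells, a ratio of 1.45 and 1.48. The quartiles of CD11b in HSCP-2 were 103.75 and 349.25 in female cells and 77.5 and 198.75 in male cells, so the cells spread widely. CD11b exceeded the Multi-Lin median in 64.5% (58.3% to 70.3%) of female and 70.7% (65.1% to 75.9%) of male HSCP-2 cells, yet HSCP-2 ranked only 10 and 11 among the 17 clusters. Itgam, the gene of CD11b, had 4.69 and 5.46 CPM in HSCP-2 and 5.72 and 3.16 CPM in Multi-Lin, below the level at which genes were compared. Median Ly-6C was 860 and 700.5 in HSCP-2 cells and 918.5 and 671.5 in Multi-Lin cells, and median Ly-6G 137.5 and 140.5 in HSCP-2 cells and 149 and 132 in Multi-Lin cells. Both were lower in HSCP-2 in the female and higher in the male library.

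CD11b counts differed between the sets split by transcripts. Cells with an Hlf or Ly6a UMI had a median CD11b count of 329 and 164, cells with a Car1 or Gzmb UMI 76 and 49, and cells with none of the 4 had 192.5 and 120. CD117 gave no such order. Its median was 336 and 267 in cells with and 385 and 263 in cells without a Car1 UMI, but 159 and 118 in cells with and 389 and 271 in cells without a Gzmb UMI. CD11b was 76 and 64 in cells with and 231 and 135.5 in cells without a Car1 UMI. Ly-6G was also lower in the Car1 set, at 89 and 90.5 in cells with and 145 and 149.5 in cells without a Car1 UMI. In the Gzmb set it was 96 and 74.5 in cells with and 141 and 149.5 in cells without a Gzmb UMI. With a Ly6a UMI both tags were higher, Ly-6G at 153 and 156.5 against 135 and 134 without. In the Hlf set Ly-6G did not follow CD11b in the female library. It was 115 and 142 in cells with and 141 and 135.5 in cells without an Hlf UMI, while CD11b was 329 and 165 with and 161 and 119.5 without. The splits were made on transcripts and the antibody values did not enter them, but the cells of each set come from 1 library per sex, and no test over cells was made. The 4 antibodies give no value for the other surface proteins named above.

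**Figure D5:**
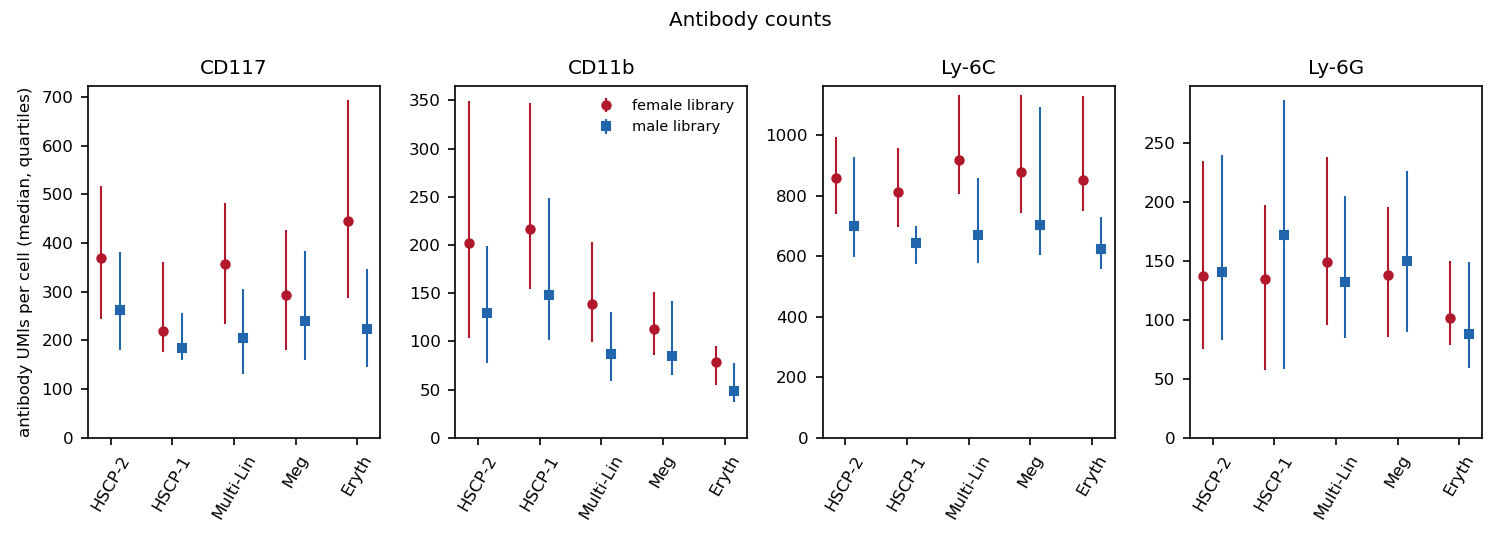
Antibody counts per cell for CD117, CD11b, Ly-6C and Ly-6G in 5 clusters, as the median (point) and quartiles (line) of the female and the male cells. HSCP-2, at the left of each panel, lies above Multi-Lin for CD11b in both libraries (202 and 129 against 139 and 87).

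Between the libraries, 2759 genes could be compared within HSCP-2 by the same 2-fold rule, and each library stands for 1 sex, so that sex and library cannot be told apart. In the female library 6 genes were higher and in the male library 3, and these include the X inactivation transcripts Xist and Tsix and the Y-linked gene Eif2s3y. Of the others, Myl10, a myosin light chain gene, had 319 CPM in female and 40.8 CPM in male HSCP-2 cells. It had 27.6 CPM in female and 3.03 CPM in male Multi-Lin cells, so that both clusters differed between the libraries while HSCP-2 exceeded Multi-Lin 10.8-fold in all. Fosb, an immediate early gene, had 220 CPM in female and 81.5 CPM in male HSCP-2 cells, and Rpia, an enzyme of the pentose phosphate pathway, 62.7 CPM in female and 19.8 CPM in male HSCP-2 cells. Hspa1a, a heat shock gene, had 28.6 CPM in female and 141 CPM in male HSCP-2 cells, and 68.1 CPM in female and 189 CPM in male Multi-Lin cells. For these 4 genes the direction was the same in Multi-Lin.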

How the data were processed

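Transcripts and antibody tags were measured in a female and a male sample of marrow progenitors, with 676 M and 689 M mRNA reads and 10000 cells loaded per sample, per the labels' protocols. Cell Ranger 2.1.0 and the build mm10 are named by the submitters' processing notes. For the annotation, cell calling, clustering and removal of doublets, the tools are not given in the sources used. The authors deposited raw UMI counts for 28692 gene IDs (28339 with a symbol) and a cluster name for each of 11132 cells. They also deposited antibody counts and antibody values on a natural log scale, which equal the natural log of a tag's share (count + 1 over sum + 1) within 5e-10.

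From these counts, UMIs were summed per library and cluster and scaled to CPM of the sum. Log2 ratios used a pseudocount of 1 CPM, and a gene with a mean of 5 CPM or more was called at 2-fold or more in the same direction in both libraries. The lowest cell held 4373 UMIs, so thinning to 4000 left none out, and no doublet caller was run. For 2 against 2 unpaired values, the smallest two-sided exact permutation p is 0.333. The sums compared are paired by library, and pairing leaves still fewer arrangements, so no test was made. 1 library per sex does not measure a spread between mice. Fano factors were taken for genes with a mean of 0.05 UMIs or more. Intervals are exact Clopper-Pearson 95% intervals and cover counting error only, as do limits from 0 counts (3 counts). The calls were tested on simulated data, where unchanged genes were called against HSCP-1 but not against Multi-Lin or all other cells. The simulated counts varied by counting error alone and not between cells. They therefore cannot show how many calls against Multi-Lin or all other cells are false.

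The named genes are the 4 markers, up to 4 members of each list by level, the largest called difference each way of each list and of all genes (10 each way at 50 CPM or more), the 10 genes highest over the next cluster, the 10 with the largest Fano factor, the 5 that differ most each way between libraries and the genes of the antibody targets. This gave 123 genes, and only some are named. Some list members are not reported here, though list counts include them. List members and other genes named beyond the rule were chosen after their values were seen. HSCP-2 and the 23 lists (290 genes) were chosen with earlier results of these data known.

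Alternatives were TMM factors (edgeR 4.0.16) and size factors (DESeq2 1.42.0) in R 4.3.3, used for scaling only, other filters, pseudocounts and folds, thinning, per-cell means, leaving out shared barcodes and each library alone. Other software was Python 3.11.15, scipy 1.17.1, pandas 2.3.3, numpy 2.4.6 and matplotlib 3.10.9. Gene starts and promoters came from RefSeq on GRCm38.p6, matched by symbol.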

Additional observations from a re-analysis of the deposited data

How the results depend on the processing

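Against Multi-Lin, the 362 higher and 88 lower calls became 258 and 133 with TMM factors, 256 and 136 with DESeq2 size factors, 127 and 51 at a mean of 20 CPM or more, and 1023 and 288 at 1.5-fold. Without a filter 627 were higher, and with a pseudocount of 5 CPM 195. All 258 higher calls with TMM factors were among the 362. In 1 library alone 559 to 560 were higher and 135 to 161 lower, since 1 library has to pass in place of 2.
Against HSCP-1, 1769 were higher without a filter, 96 higher and 77 lower at 20 CPM, 1002 higher after thinning, 796 and 567 at 1.5-fold, and 108 lower with a pseudocount of 5. In 1 library alone 1371 to 1406 were higher and 1032 to 1198 lower.
Against all other cells the counts were 575 and 620 with TMM factors, 588 and 601 with DESeq2 factors, 465 and 180 at 20 CPM, 2345 and 571 at 1.5-fold, with 1735 higher without a filter and 727 with a pseudocount of 5. In 1 library alone 1385 to 1459 were higher and 360 to 372 lower.
The genes highest in HSCP-2 numbered 37 with clusters of any size, 102 at 2-fold, and 464 to 479 in 1 library. Genes with a Fano factor of 1.5 or more numbered 645 unthinned, 181 to 189 in 1 library, and 107 and 125 with other draws, an alternative chosen after seeing the data.
The log2 difference of CD11b (0.55) was 0.35 on the deposited log scale, 0.25 when centred and 0.62 for means, that of Ly-6C (-0.02) was -0.15 and -0.23 on the deposited and centred scales, and that of Ly-6G was -0.20 when centred. In 1 library CD117 was 0.05 to 0.35, CD11b 0.54 to 0.57, Ly-6C -0.09 to 0.06 and Ly-6G -0.12 to 0.09, and the share of cells 4.27% to 5.90%. The causes were not tested.
Of 49 called genes named by the rule, 552 of 588 gene and setting pairs kept the call, 36 lost it and 0 changed sign. TMM and DESeq2 factors each ended 6 calls (Angpt1, Dntt, Gzmb, H2-Q7, Jun and Sox4). With TMM factors 9 stem cell, 5 erythroid, 6 interferon and 2 stress genes were called higher.
The labels give no replicate numbers and the results come from no test, so no paired test was fitted. Every ratio between clusters was taken within a library, so the sums compared are already matched by library. Depth limits genes of few UMIs and all values of HSCP-1 most.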
